A study of Bos taurus with 44 samples.

Results

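SQLE and FDPS encode enzymes of the pathway that makes cholesterol, and each was measured by 1 probe among the probes of 8073 named genes on 44 arrays of cattle caruncular and intercaruncular tissue. They were chosen by gene symbol, with earlier results of these data known. Each array set RNA of 1 group against RNA of another in the dyes Cy5 and Cy3, and each value is the log2 ratio of the pair, averaged over the 2 spots of the probe. The groups were IVF-ET (embryos fertilised in vitro and transferred, 5 animals), SCNT (embryos cloned by nuclear transfer from body cells, 5 animals and 2 pools), AI (artificial insemination) and CJ (5 animals, with cycle as the only word the labels add). The AI animals set against IVF-ET (7 animals, 5 in each area, 3 of them in both) and those of the SCNT and CJ comparisons (4 animals and 2 pools) are named differently, and no animal is in both sets. The sources used here do not give breed, age, day of collection or the number of animals in a pool, and the pregnancy status of the IVF-ET, SCNT and AI animals is not stated either.

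The synthesis of cholesterol starts from acetyl-CoA and runs through mevalonate to isoprenoid units, which FDPS (farnesyl diphosphate synthase) joins into farnesyl diphosphate. Farnesyl diphosphate is a branch point: it feeds sterols, but also dolichol, ubiquinone and the lipid anchors of proteins. On the sterol branch, SQLE (squalene epoxidase, also called squalene monooxygenase) adds oxygen to squalene, a rate-limiting step, before lanosterol synthase closes the rings. In mammals, transcription factors of the SREBP family switch on both genes when sterols run low. The placenta of cattle attaches at caruncles, knob-like areas of the uterine lining, and the intercaruncular areas are the glandular lining around them.

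The numerator of the ratios is not stated in the labels. It was taken to be Cy5, as the likely reading, because ISG15, an interferon-stimulated gene, then lies higher in SCNT and AI than in CJ, and OXTR, the oxytocin receptor, lower, which is the pattern of the ruminant uterus in early gestation. These 2 genes are therefore no result here, and under the opposite reading every sign below turns. The values are ratios, so no level of any gene within a sample was available. In tissue RNA, fewer cells of a type and less RNA per cell cannot be told apart.

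Both genes were lower in SCNT and in AI animals than in CJ animals in the intercaruncular area, by 1.58- to 1.90-fold, and neither gene passed the test in any comparison between SCNT, IVF-ET and AI. Within 1 area, the largest of those other differences was 0.18 log2 units in size (SQLE, lower in IVF-ET than in AI animals of the intercaruncular area).

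**Figure D1:**
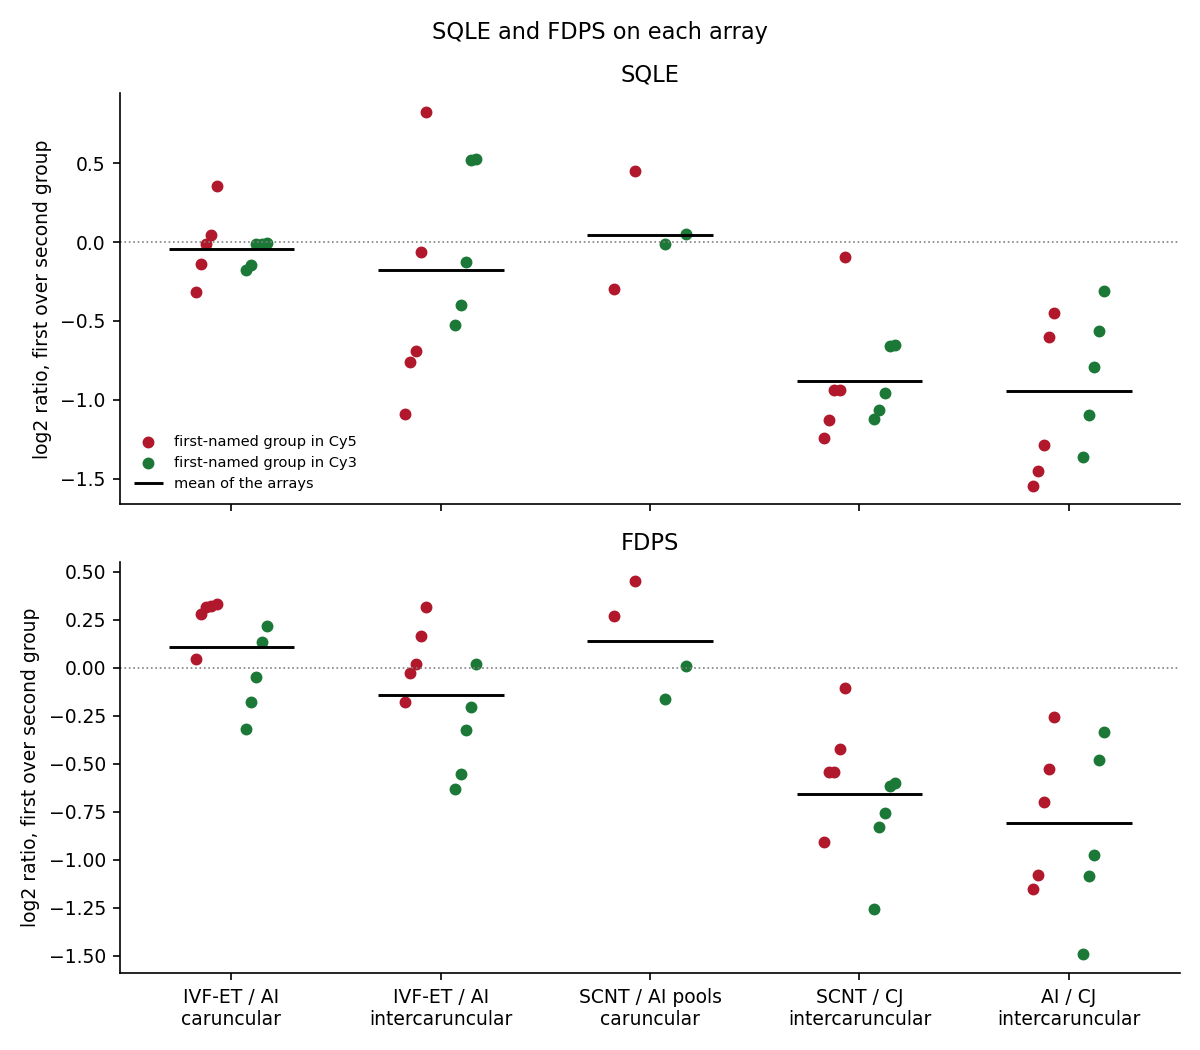
Log2 ratio (vertical axis) of SQLE (top) and FDPS (bottom) on each array, by pair of groups, with the first-named group over the second. Red points are arrays with the first-named group in Cy5, green points those with it in Cy3, and lines are means over arrays; all 20 arrays with CJ lie below 0 for both genes, while the other 3 sets lie on both sides of it.

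In SCNT against CJ animals, the 10 arrays gave SQLE log2 ratios from -1.24 to -0.09, with a median of -0.95. All 10 lay below 0, and 9 of them at or below -0.65. The array of SCNT animal 4 over CJ animal 2 stood apart at -0.09, while the other array of that SCNT animal gave -0.65 and the other SCNT array of that CJ animal gave -1.07. The fitted difference was -0.88 ± 0.13 (SE; 5 SCNT and 5 CJ animals), 1.84-fold lower in SCNT (limma, Benjamini-Hochberg adjusted p = 4.1e-05). In the same comparison, 21.7% of all probes passed the threshold of 0.05, 10.4% on the higher and 11.3% on the lower side, and 5.75% were below 0 on all 10 arrays.

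FDPS gave log2 ratios from -1.26 to -0.11 on the arrays of SCNT over CJ, with a median of -0.61, and again none above 0. Its fitted difference was -0.66 ± 0.11 (SE; 5 and 5 animals), 1.58-fold lower in SCNT animals (limma, adjusted p = 0.000111). FDPS ratios also moved with the dye: the mean was -0.50 over the arrays with SCNT in Cy5 and -0.81 over those with SCNT in Cy3. The fit has 1 dye term for all 20 arrays with CJ, so it takes out an offset common to the SCNT and AI sets. SQLE showed a smaller gap in SCNT over CJ, with -0.87 and -0.89. In AI over CJ, the SQLE means were -1.065 with AI in Cy5 and -0.82 with AI in Cy3, and those of FDPS -0.74 and -0.87.

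In AI against CJ animals, SQLE had log2 ratios from -1.54 to -0.31, with a median of -0.95. FDPS had -1.49 to -0.26, with a median of -0.84. For both genes all 10 arrays were below 0, as for 4.35% of all probes. The fitted differences were -0.92 ± 0.13 for SQLE (1.90-fold lower in AI; limma, adjusted p = 6.78e-05) and -0.78 ± 0.11 for FDPS (1.72-fold lower in AI; limma, adjusted p = 5.51e-05; SE, 4 AI and 5 CJ animals). Of all probes, 15% passed, 6.92% on the higher and 8.08% on the lower side. AI animal 3 is named on 4 of these arrays, 2 of them with CJ animal 3 in both dyes. Those 2 arrays gave SQLE ratios of -1.28 and -0.79 and FDPS ratios of -1.08 and -1.09, so that they nearly coincided for FDPS and not for SQLE. Without AI animal 3 the differences were -0.74 for SQLE and -0.54 for FDPS, and both still passed.

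The 20 arrays link all animals, so that each animal's level could be estimated relative to the mean of the 5 CJ animals by least squares. SQLE stood at -0.74, -0.87, -0.99, -0.53 and -1.26 log2 units in SCNT animals 1 to 5, at -0.61, -0.84, -1.22 and -0.85 in AI animals 1 to 4, and at 0.02, -0.33, -0.19, 0.30 and 0.20 in CJ animals 1 to 5. Every SCNT animal and every AI animal lay below every CJ animal, as for 5.82% and 4.26% of all probes, and the AI animals lay within the range of the SCNT animals. The residual SD between arrays was 0.29, about as large as the SD among animals (0.27 in SCNT, 0.25 in AI and 0.26 in CJ), so the order of animals within a group lies within the error of the arrays.

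FDPS stood at -0.73, -0.72, -0.51, -0.68 and -0.66 log2 units in SCNT animals 1 to 5, at -0.53, -0.88, -1.13 and -0.37 in AI animals 1 to 4, and at -0.20, -0.13, -0.02, 0.31 and 0.05 in CJ animals 1 to 5. Again no SCNT or AI animal reached the CJ animals, as for 5.82% and 4.26% of all probes. The gap between the highest AI animal and the lowest CJ animal was narrow (-0.37 against -0.20). The residual SD was 0.12. AI animals varied more (SD 0.34, n = 4) than SCNT animals (SD 0.09, n = 5) and CJ animals (SD 0.20, n = 5), and this difference in spread was not tested. AI and CJ animals thus varied more than the arrays did. The SE of FDPS in AI against CJ rests on the spread between arrays and may be too small. AI animal 3 was the lowest AI animal for both genes, and CJ animal 4 the highest CJ animal for both.

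**Figure D2:**
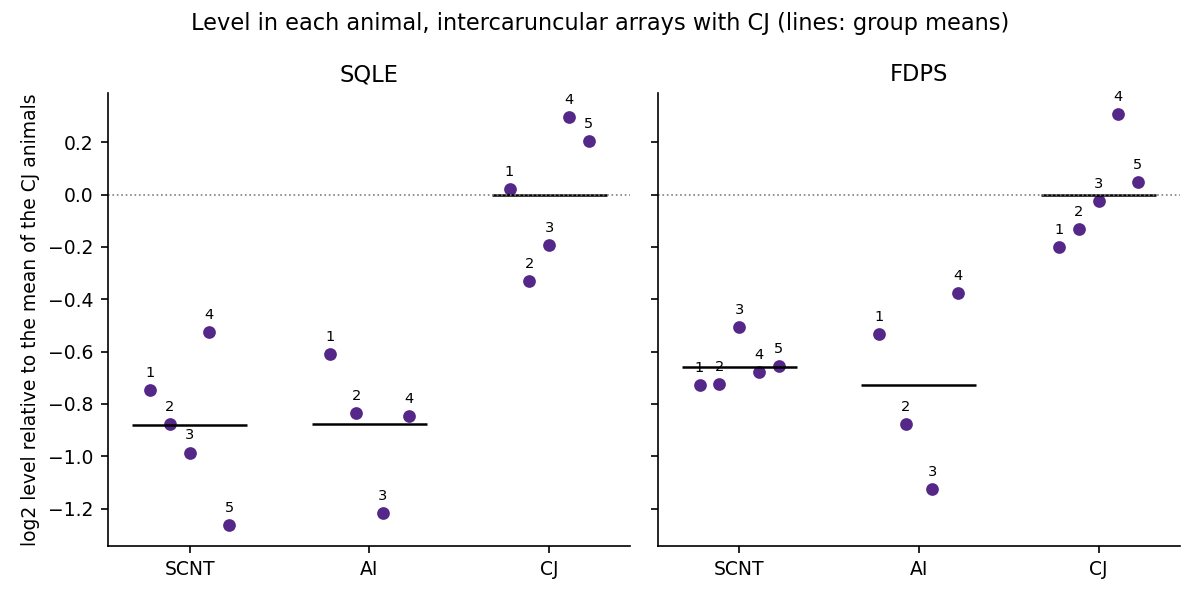
Log2 level of SQLE (left) and FDPS (right) in each SCNT, AI and CJ animal relative to the mean of the CJ animals (dotted line), estimated by least squares from the 20 intercaruncular arrays. Numbers are the animals and lines the group means. No SCNT or AI animal reaches the lowest CJ animal (-0.33 for SQLE and -0.20 for FDPS), as for 5.82% (SCNT) and 4.26% (AI) of all probes.

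Markers of cell types also differed from CJ on these 20 arrays (limma), where the shares called over all probes were 10.4% up and 11.3% down for SCNT, and 6.92% up and 8.08% down for AI. Of 10 stromal fibroblast markers 9 were lower in SCNT (median log2 difference -1.90, range -3.12 to -0.65) and 6 in AI (median -1.22, range -2.09 to 0.18). Of 8 smooth muscle markers 5 were lower in SCNT and 2 in AI, with medians of -0.67 and -0.37. Of 11 epithelial markers 6 were higher and 1 lower in SCNT and 2 were higher in AI, with medians of 0.38 and 0.26. Of 8 trophoblast markers 4 were higher in SCNT (median 0.61) and none in AI (median 0.03, and 0 at an unadjusted p under 0.05). Of 7 endothelial markers 3 were higher and 1 lower in SCNT, and 1 was higher and 1 lower in AI (medians 0.06 and 0.06), and the single calls are near the shares of all probes. Of 6 macrophage and dendritic cell markers 1 was higher in AI and none in SCNT (0 at an unadjusted p under 0.05), and of 7 T and NK cell markers none was called in AI or SCNT (2 and 1 higher at an unadjusted p under 0.05). The medians of both classes were within 0.16 of 0. Since the values are ratios, whether any of these markers was absent could not be read. Between SCNT and AI no marker passed (limma). At an unadjusted p under 0.05, through CJ, 5 of 10 stromal markers were lower (median -0.91), 4 of 8 trophoblast and 2 of 11 epithelial higher. In the caruncular pools 7 of 11 epithelial markers were lower (median -0.34), 4 of 8 trophoblast (median 1.07) and 3 of 10 stromal higher. Of 13824 probes, 1058 through CJ and 1744 in the pools had such a p. The part of these cell types in the SQLE and FDPS differences was not tested.

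SCNT and AI animals were compared through CJ on the same 20 arrays. The difference was 0.04 ± 0.17 for SQLE (SE; 95% confidence interval -0.30 to 0.39) and 0.12 ± 0.14 for FDPS (-0.17 to 0.41), with adjusted p of 0.997 and 0.978 (limma; 0.282% of all probes passed). Without AI animal 3 the sign turned for both genes, to -0.13 and -0.11. For SQLE it also turned without CJ animal 4 or 5 (-0.03 and -0.01) or SCNT animal 4 (-0.07). The intervals still allow a difference of about 0.4 log2 units in either gene, so that they do not show the levels to be alike.

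The direct comparison of SCNT with AI was made in the caruncular area on pools. SQLE gave log2 ratios of -0.30 and 0.05 on the arrays of SCNT pool 1 over AI pool 2, and 0.45 and -0.01 on those of SCNT pool 2 over AI pool 1, with SCNT in Cy5 first in each pair. FDPS gave 0.27 and -0.16 in the first pair and 0.45 and 0.01 in the second. The 2 arrays of a pair differed by at least as much as the means of the 2 pairs did, and for SQLE the pair means had opposite signs (-0.12 and 0.22). The fitted differences were 0.05 ± 0.11 for SQLE (95% confidence interval -0.23 to 0.33, adjusted p = 0.913) and 0.14 ± 0.09 for FDPS (-0.09 to 0.37, adjusted p = 0.603; limma, 2 pairs of pools). No probe passed in this comparison (0%), and 1744 had an unadjusted p under 0.05.

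IVF-ET and AI animals were compared in both areas, on 10 arrays each, where every animal was on 2 arrays of an area, once in each dye. In the caruncular area, SQLE log2 ratios of IVF-ET over AI ran from -0.31 to 0.36, with a median of -0.01. FDPS ran from -0.32 to 0.33, with a median of 0.18. Ratios lay on both sides of 0 for both genes, and the sign of FDPS went largely with the dye: its mean was 0.26 with IVF-ET in Cy5 and -0.04 with IVF-ET in Cy3. The fitted differences were -0.04 ± 0.06 for SQLE (95% confidence interval -0.18 to 0.10, adjusted p = 0.857) and 0.11 ± 0.06 for FDPS (-0.03 to 0.25, adjusted p = 0.632; limma, 5 and 5 animals). In this comparison 0.0217% of all probes passed.

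In the intercaruncular area, SQLE ratios of IVF-ET over AI spread much more widely, from -1.09 to 0.82 with a median of -0.26. The SD of SQLE over arrays was 0.18 in the caruncular area, larger than that of 40.3% of all probes there, and 0.63 in the intercaruncular area, larger than that of 90.1%. IVF-ET animal 1 was high on both of its arrays (0.53 and 0.82, mean 0.68), whereas the means of the other 4 IVF-ET animals lay between -0.58 and -0.29. The fitted difference was -0.18 ± 0.17 (95% confidence interval -0.55 to 0.19; limma, adjusted p = 0.788; 0.00724% of all probes passed). Without IVF-ET animal 1 it was -0.39, which also did not pass. SQLE in IVF-ET animal 5 was -1.09 over AI animal 1 and 0.52 over AI animal 7, so that the 2 arrays of 1 animal spanned most of the range of the set.

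FDPS in the intercaruncular area ran from -0.63 to 0.31, with a median of -0.10. As in the caruncular area its mean was higher with IVF-ET in Cy5 (0.06) than with IVF-ET in Cy3 (-0.34). The fitted difference was -0.14 ± 0.08 (95% confidence interval -0.32 to 0.04; limma, adjusted p = 0.651). The FDPS means of the IVF-ET animals lay between -0.27 and -0.08 here, and between 0.00025 and 0.25 in the caruncular area. For how many of all probes the animal means lie on 1 side of 0 was not counted.

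The difference between the areas was itself tested over the 20 arrays, with the areas of an animal taken as separate. For SQLE the difference of IVF-ET from AI was 0.14 ± 0.20 log2 units higher in the caruncular than in the intercaruncular area (95% confidence interval -0.27 to 0.54, adjusted p = 0.887). For FDPS it was 0.25 ± 0.10 higher (0.04 to 0.46), with an unadjusted p of 0.0203 and an adjusted p of 0.605 (limma). FDPS thus did not pass over all probes, of which 0.00723% did, while 1070 of 13824 had an unadjusted p under 0.05.

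The same IVF-ET and AI animals met on arrays of both areas in 6 pairings, each in the same dyes. FDPS ratios were higher in the caruncular than in the intercaruncular area in all 6, as for 1.5% of all probes without missing values. In IVF-ET animal 1 over AI animal 1, for example, the FDPS ratio was 0.22 in the caruncular area and -0.55 in the intercaruncular area. SQLE showed no common direction. The SQLE ratio of IVF-ET animal 1 over AI animal 2 was -0.01 in the caruncular and 0.82 in the intercaruncular area, and that of IVF-ET animal 5 over AI animal 1 was -0.14 in the caruncular and -1.09 in the intercaruncular area. The 6 pairings share animals and are not independent. Over the pairings alone, with each as a block, the FDPS difference between the areas was 0.42 ± 0.14 (SE; limma, adjusted p = 0.988) and the SQLE difference 0.15 ± 0.28 (0.988), in a fit that was chosen after the values had been seen. Neither passed, and the FDPS value was more than 1.5 times that over all 20 arrays (0.25).

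**Figure D3:**
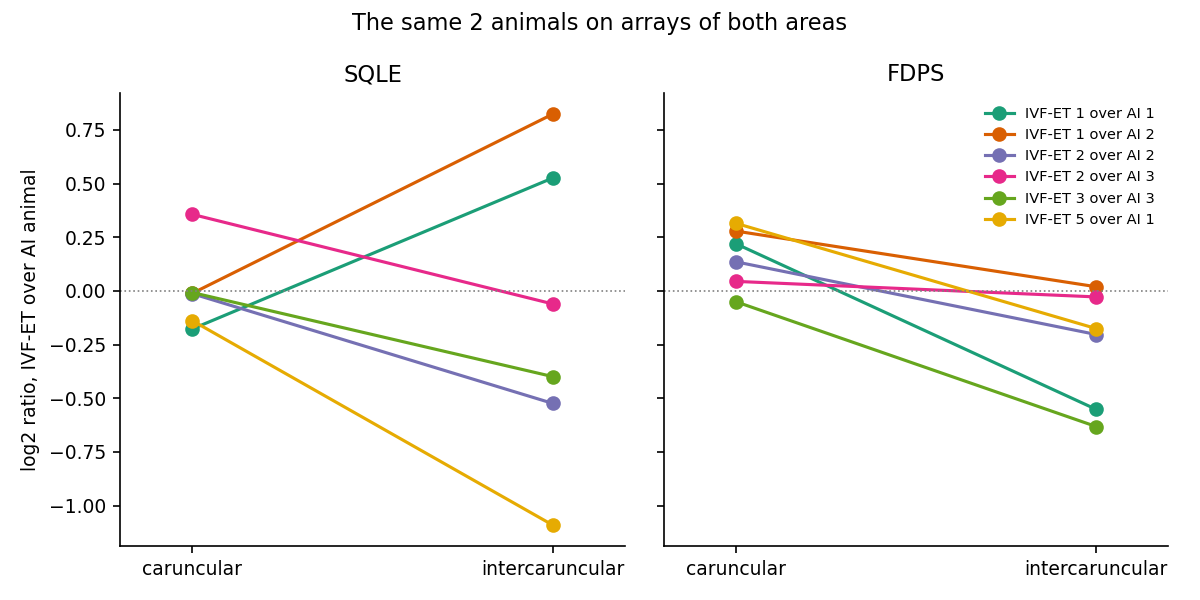
Log2 ratio of SQLE (left) and FDPS (right) in the 6 pairings of an IVF-ET with an AI animal that were hybridised in the same dyes for both areas; each line joins the caruncular and the intercaruncular value of 1 pairing. All 6 FDPS lines go down to the right, whereas SQLE lines go up for the 2 pairings of IVF-ET animal 1 and down for the other 4.

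**Figure D4:**
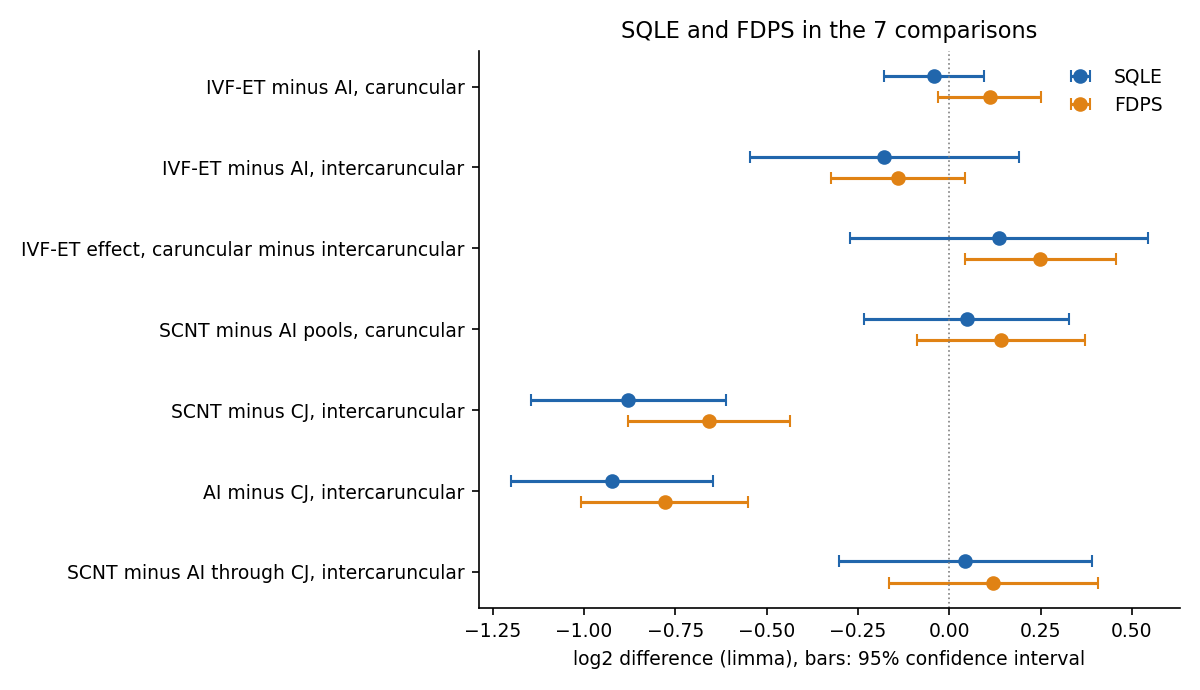
Fitted log2 difference of SQLE (blue) and FDPS (orange) in each comparison, first-named group minus second; bars are 95% confidence intervals of the limma fit, not adjusted for the number of probes. The SCNT and AI differences from CJ lie below 0 (-0.92 to -0.66), and the others lie between -0.18 and 0.25.

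The other enzymes of cholesterol synthesis were counted from a list of the pathway, of which 12 genes with SQLE and FDPS were measured. The list, like SQLE and FDPS, was chosen with earlier results of these data known. In SCNT against CJ animals 7 of the 12 fell (10 at an unadjusted p under 0.05) and none rose (0), while 11.3% of all probes fell and 10.4% rose. The median log2 difference of the 12 was -0.41, against 0.01 over all probes. In AI against CJ animals 7 of the 12 fell (9 at an unadjusted p under 0.05) and none rose (0), while 8.08% of all probes fell and 6.92% rose (limma). Their median was -0.36, against 0.01. Without SQLE and FDPS, 5 of 10 fell in each comparison and the medians were -0.34 and -0.34. Both comparisons share the CJ animals, and these are the arrays on which stromal markers were lower (9 of 10 in SCNT and 6 of 10 in AI).

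The genes that fell in both were spread over the pathway. Upstream of FDPS, ACAT2, an enzyme that condenses acetyl-CoA, was -0.85 ± 0.14 in SCNT and -0.76 ± 0.14 in AI relative to CJ, and MVK, mevalonate kinase, was -0.27 ± 0.07 and -0.34 ± 0.07 (SE). Directly after SQLE, LSS, lanosterol synthase, was -0.68 ± 0.10 in SCNT and -0.57 ± 0.10 in AI. EBP, a sterol isomerase near the end of the pathway, was -0.43 ± 0.09 in SCNT and -0.35 ± 0.09 in AI. The differences of ACAT2, MVK and LSS passed in every fit that left out 1 animal, and those of EBP in SCNT did as well. MVK in SCNT missed the threshold with the first spot only (-0.23; limma, adjusted p = 0.0535). EBP in AI missed the threshold when AI animal 1 or 2 was left out (-0.34 and -0.33), and when animal 2, 4 or 5 of CJ was (-0.35, -0.31 and -0.32).

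NSDHL and MSMO1, also on the sterol branch, passed in 1 comparison each. NSDHL, a sterol dehydrogenase, was -0.45 ± 0.13 in SCNT against CJ (limma, adjusted p = 0.0173) and -0.38 ± 0.14 in AI against CJ (0.066). The SCNT difference of NSDHL missed the threshold when animal 1, 2 or 4 of CJ was left out (-0.32, -0.47 and -0.38), and when animal 1 of SCNT was (-0.44). MSMO1, a methylsterol monooxygenase, was -0.63 ± 0.18 in AI (limma, adjusted p = 0.0217) and -0.40 ± 0.18 in SCNT (0.12). The AI difference of MSMO1 was -0.11 without AI animal 3 and did not pass, nor did it when animal 3, 4 or 5 of CJ was left out (-0.43, -0.61 and -0.59). Neither gene passed between SCNT and AI through CJ. The difference was -0.07 ± 0.17 for NSDHL (SE; 95% confidence interval -0.42 to 0.29; limma, adjusted p = 0.995). For MSMO1 it was 0.23 ± 0.23 (-0.25 to 0.70; limma, adjusted p = 0.966). These intervals do not show the levels to be alike.

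The 4 remaining enzymes did not pass in either comparison. PMVK, phosphomevalonate kinase, was -0.16 in SCNT and -0.07 in AI, TM7SF2, a sterol reductase, -0.26 and -0.29, and HSD17B7, a sterol ketoreductase, -0.03 and 0.09. GGPS1, which extends farnesyl diphosphate to geranylgeranyl diphosphate and so uses the product of FDPS outside the sterol branch, was -0.10 ± 0.07 in SCNT and -0.09 ± 0.08 in AI. None of the 12 genes passed between SCNT and AI, where 1 in the pools and 0 through CJ had an unadjusted p under 0.05, or between IVF-ET and AI, where 1 in the caruncular and 2 in the intercaruncular area had (limma). In the IVF-ET comparisons their median log2 differences were 0.08 in the caruncular and -0.14 in the intercaruncular area. For the difference between the areas, caruncular minus intercaruncular, the median of the 12 was 0.18. None passed, and 2 had an unadjusted p under 0.05 (limma). TM7SF2 (0.43) and MSMO1 (0.40) lay above FDPS (0.25), and PMVK was lowest (-0.16).

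**Figure D5:**
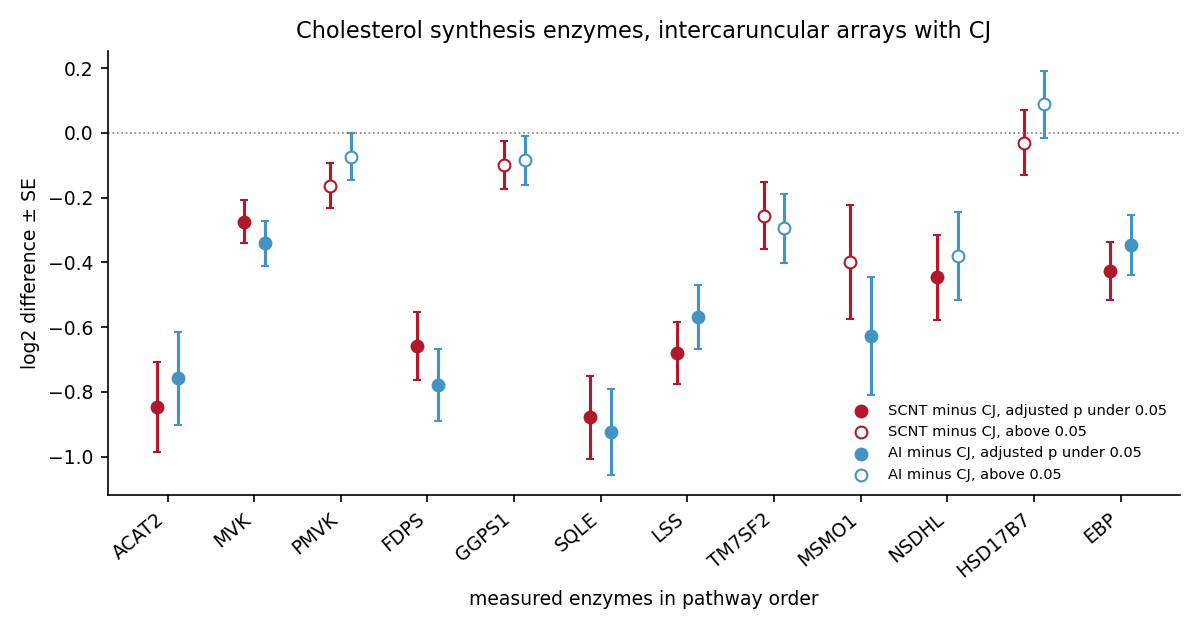
Log2 difference from CJ (vertical axis, ± SE of the limma fit) of the 12 measured enzymes in pathway order, in SCNT (red) and AI (blue) animals of the intercaruncular area. Filled points passed at an adjusted p of 0.05 over all probes; ACAT2, SQLE, FDPS and LSS are among the lowest in both comparisons, and the points nearest to 0 are HSD17B7 in SCNT (-0.03) and PMVK in AI (-0.07).

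Of the genes that use farnesyl and other isoprenyl units outside sterols, 8 were measured and 1 fell in each comparison with CJ, a share near that of all probes (11.3% in SCNT and 8.08% in AI). That gene was RABGGTB, a subunit of the enzyme that puts geranylgeranyl groups on Rab proteins, at -0.35 ± 0.11 in SCNT and -0.45 ± 0.11 in AI. It passed in 9 of the 14 fits without 1 animal in SCNT, where its difference lay between -0.47 and -0.24, and in 12 of 14 in AI, between -0.52 and -0.33. FNTA and FNTB, the subunits of the enzyme that attaches the farnesyl group made by FDPS, were at 0.03 and -0.15 in SCNT and at -0.21 and -0.03 in AI, and none of these passed.

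Among 6 measured regulators, 1 rose and 1 fell in SCNT and 1 rose in AI, relative to CJ. Of all probes, 10.4% rose and 11.3% fell in SCNT, and 6.92% rose in AI, so these single calls are near the shares of all probes. The transcripts of the SREBP genes did not pass. SREBF2, whose product drives cholesterol synthesis genes, was -0.20 ± 0.08 in SCNT (adjusted p = 0.0795) and -0.08 ± 0.08 in AI (0.682), and SREBF1, whose product drives mainly fatty acid synthesis, was 0.28 ± 0.12 and 0.26 ± 0.12 (0.109 and 0.192, limma). MYLIP, a ubiquitin ligase that marks the LDL receptor for degradation and is induced by the sterol-sensing LXR receptors, rose in both, by 0.64 ± 0.11 in SCNT and 0.78 ± 0.11 in AI. NR1H2, which encodes an LXR receptor, was 0.09 ± 0.12 in SCNT and 0.14 ± 0.13 in AI and did not pass (limma, adjusted p = 0.72 and 0.657). MYLIP passed in every fit without 1 animal. MBTPS1, a protease needed for the release of active SREBP, fell in SCNT (-0.39 ± 0.11, limma, adjusted p = 0.0146) and was at -0.08 ± 0.12 in AI. It passed in 9 of the 14 fits without 1 animal, with differences between -0.50 and -0.31. INSIG2, which holds SREBP in the endoplasmic reticulum, was -0.23 and -0.21 and did not pass.

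Of 13 measured genes for the uptake, transport and storage of cholesterol, 3 rose and 2 fell in SCNT, and 3 rose and none fell in AI, relative to CJ. Of all probes, 10.4% rose and 11.3% fell in SCNT, and 6.92% rose and 8.08% fell in AI, so that the 2 falls in SCNT are near the share of all probes. STARD3, which moves cholesterol between endosomes and other membranes, rose in both (0.47 ± 0.09 in SCNT and 0.34 ± 0.09 in AI). In AI it missed the threshold without AI animal 1 (0.31). APOE, an apolipoprotein that binds lipoprotein receptors, was -1.44 ± 0.24 in SCNT (limma, adjusted p = 0.000174) and -0.73 ± 0.25 in AI (0.0548), and SCARB1, a receptor for high-density lipoprotein, was -0.39 ± 0.10 in SCNT (adjusted p = 0.00632) and -0.12 ± 0.10 in AI (0.591). VLDLR, a lipoprotein receptor, rose by 0.65 ± 0.17 in SCNT and by 0.62 without CJ animal 4, where it no longer passed. CAV1, a membrane scaffold that binds cholesterol, was 0.50 in SCNT and 0.56 in AI, and its differences passed in only 3 of 14 fits without 1 animal in each, with ranges of 0.39 to 0.58 and 0.31 to 1.04. LRP1, another lipoprotein receptor, was 0.38 in AI and passed in 8 of 14, with a range of 0.29 to 0.47. Of 2 probes for ABCA1, a cholesterol exporter, the one counted above gave 0.28 in SCNT and -0.02 in AI and did not pass (adjusted p = 0.373 and 0.988). The other probe of ABCA1 gave 1.17 and 1.26 and passed (limma, adjusted p = 0.000159 and 0.000193), so that no direction is given for the gene.

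Fatty acid synthesis shares acetyl-CoA and SREBP control with the cholesterol pathway, and here 8 genes were measured. ACLY, which makes cytosolic acetyl-CoA, was -0.51 ± 0.10 in SCNT and -0.51 ± 0.10 in AI relative to CJ, and FADS1, a desaturase, was -0.93 ± 0.12 and -0.72 ± 0.12. These differences passed in every fit without 1 animal. ME1, the cytosolic malic enzyme, fell in SCNT (-0.60 ± 0.15, and -0.44 without CJ animal 1, where it did not pass). FASN, the fatty acid synthase, gave the opposite sign: it was 0.74 ± 0.12 in SCNT against CJ by the main probe, but its other probe gave 0.24. By the main probe FASN was also 0.90 ± 0.16 higher in SCNT than in AI through CJ (limma, adjusted p = 0.0103), against 0.13 by the other probe. This missed the threshold without AI animal 3 (0.85) and when animal 2, 3 or 4 of CJ was left out (0.87, 0.83 and 0.74). ACSS2, which activates acetate, was 0.41 ± 0.13 in AI and passed in 7 of 14 fits without 1 animal, with a range of 0.33 to 0.46. Over the 8 genes the medians were -0.03 in SCNT and -0.14 in AI, with 1 rise and 3 falls in SCNT and 1 rise and 2 falls in AI. The single rise in each is near the share of all probes that rose (10.4% in SCNT and 6.92% in AI), and 11.3% and 8.08% of all probes fell.

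The probes with the patterns most like SQLE were sought among 8636 probes of 1 named gene over all 44 arrays, by Pearson's r after the dye mean of each set was removed. The highest r were those of STOML2, a protein of the inner mitochondrial membrane (0.86), MRPL16, of the mitochondrial ribosome (0.85), PSMA1 and PSMB5, subunits of the proteasome (0.83 and 0.83), and GNL3, a nucleolar GTP-binding protein (0.82). For FDPS they were MANF, a protein of the endoplasmic reticulum (0.86), NUCB2, a calcium-binding secretory protein (0.83), GAR1, of the nucleolar RNA-modifying particles (0.81), C29H11orf98 (0.81) and SPCS3, a subunit of the signal peptidase (0.80). All 10 were lower in SCNT and in AI than in CJ animals, with log2 differences between -1.65 and -0.39 in SCNT and between -1.66 and -0.43 in AI. Of all probes, 11.3% and 8.08% passed on the lower side. The choice by r favours such probes, because the arrays with CJ, all below 0 for SQLE and FDPS, are among the 44. Their direction is therefore no separate result. The arrays share animals and fall into sets with different means, so that r over all 44 holds these differences between sets.

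SQLE and FDPS themselves had an r of 0.72 over the 44 arrays, which put FDPS in place 84 among the probes most like SQLE and SQLE in place 49 among those most like FDPS. Within sets the r between them differed widely: 0.72 over the 10 arrays of AI over CJ, 0.08 over the 10 of SCNT over CJ, -0.42 over the 10 caruncular and 0.07 over the 10 intercaruncular arrays of IVF-ET over AI. STOML2, which was picked for its r over arrays that include these, had an r with SQLE of 0.93 over the 10 intercaruncular arrays of IVF-ET over AI, where SQLE varied most, 0.77 over SCNT and CJ and 0.73 over AI and CJ, and 0.16 in the caruncular set. MANF, picked in the same way, had an r with FDPS of 0.79 over SCNT and CJ and 0.62 over AI and CJ, and of 0.09 and 0.25 in the caruncular and intercaruncular IVF-ET sets.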

How the data were processed

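Per the labels' protocols, RNA of frozen tissue was reverse-transcribed and coupled to Cy3 or Cy5. The authors deposited 1 log2 ratio of the dyes per spot and array, with no depth or intensity used here; all 331 values below -4 (100%) were base-2 logarithms of ratios rounded to 4 decimals, within 6e-05. How background and dye bias were corrected is not given in the sources used here. The median of each array was between -0.0164 and 0.0124. The 27648 rows hold 13824 probes with 2 spots (r between spots 0.545 to 0.935 across probes), of which 8645 name 1 gene in the supplied annotation, 105 several and 5074 none.

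Values were turned to the first-named group over the second. Probes measured on 80% or more of a fit's arrays entered a generalised least squares fit with a dye term. It held a common correlation between arrays with the same animal in the same area (caruncular IVF-ET arrays 0.13, intercaruncular 0, both 0.01, CJ arrays 0.12). Arrays of the same animal in different areas were given no correlation. The fit was moderated with limma 3.58.1 in R 4.3.3, and adjusted by Benjamini-Hochberg over all probes (threshold 0.05). Pool pairs with swapped dyes were averaged and tested against 0. Each array, or each averaged pool pair, was a unit of the fit, so p-values rest on the spread between arrays or pool pairs. The animal entered only through the correlation, which was common to all probes. That correlation was 0 in the intercaruncular IVF-ET fit, where the 2 arrays of an animal thus counted as independent. SQLE, FDPS, every listed gene passing in at least 1 comparison or adjacent to them in the pathway, and per gene the 5 most similar probes were named; where a gene has several probes, that with the fewest missing values was used. The members and lists were chosen with earlier results of these data known. Alternatives covered dye term, correlation, single spots, scaling, filter, moderation and leaving out each animal. No sequence was used here.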

Additional observations from a re-analysis of the deposited data

Results flagged for a closer look

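Among 24 groups of array values or animal means of SQLE and FDPS, 2 held a value whose gap to the nearest other exceeded Dixon's 95% critical value, and chance gives about 1 in 20. On the array of SCNT animal 4 over CJ animal 2, with SCNT in Cy5, the SQLE log2 ratio was -0.0921, while the other 9 arrays of SCNT over CJ lay between -1.24 and -0.651. Its 2 spots gave -0.111 and -0.0731, and FDPS on the same array was -0.424, within the range of its set. In the intercaruncular area, IVF-ET animal 1 had a mean SQLE log2 ratio over AI animals of 0.675, while the other 4 IVF-ET animals lay between -0.578 and -0.285. Both of its arrays were high, in opposite dyes (0.53 and 0.82). In the caruncular area its mean was -0.0936.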

How the results depend on the processing

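SQLE and FDPS stayed lower than in CJ and past the threshold in all 14 fits that left out 1 animal and in all 9 other settings: SQLE between -0.988 and -0.826 (SCNT) and between -1.06 and -0.744 (AI) without 1 animal, FDPS between -0.731 and -0.555 (SCNT) and between -0.898 and -0.544 (AI). Over all these fits, pathway genes lower than in CJ numbered 6 to 9 in SCNT and 5 to 9 in AI. Calls of MVK and RABGGTB in SCNT and of RABGGTB, LRP1, ACSS2 and MSMO1 in AI, and of CAV1 in both, were also lost in 1 to 3 of the 9 other settings. In no setting did either SQLE or FDPS pass in the other comparisons, but some signs reversed without 1 animal; the cause was not tested. SQLE in IVF-ET against AI, caruncular, lay between -0.0982 and 0.00539 (without AI animal 4). SCNT against AI through CJ lay between -0.134 (without AI animal 3) and 0.162 for SQLE, which was -0.0322 and -0.0127 when animal 4 or 5 of CJ was left out and -0.0674 when animal 4 of SCNT was, and between -0.114 (without AI animal 3) and 0.219 for FDPS. With only 1 pair of pools, SQLE was 0.22 or -0.124 and FDPS 0.23 or 0.0517, with no test. SQLE in IVF-ET against AI, intercaruncular, lay between -0.391 (without IVF-ET animal 1) and -0.0779 (without IVF-ET animal 3). FDPS lay between 0.0699 and 0.144 in the caruncular area, between -0.198 and -0.0833 in the intercaruncular area and between 0.153 and 0.309 for their difference, which was 0.0540 to 0.363 for SQLE.

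Probes passing in all numbered 2994 in SCNT against CJ (2046 to 3804 without 1 animal), 2074 in AI against CJ (1286 to 2826), 39 in SCNT against AI through CJ (8 to 53), 3 in IVF-ET against AI, caruncular (0 to 3 over all settings), 1 intercaruncular (0 to 2), 1 for their difference (0 or 1) and 0 in the pools (94 with the first spot only, 2 with the second, 268 with each array as a replicate). With the 6 pairings of the same animals in both areas as a block, chosen after seeing the data, the difference between the areas was 0.425 for FDPS and 0.151 for SQLE, and neither passed. Within an area or against CJ, the compared groups hold different animals. An animal number that recurs in another group does not name the same animal. Ratios without intensities leave no measure of signal over background, and the number of animals and pools limits the precision.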
